A study of Mus musculus with 6 samples.

Results

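Amino acid and neurotransmitter transporters were read in neocortical cells of the mouse embryo with and without extra Insm1. They were taken as the genes whose symbols belong to the solute carrier families Slc1, Slc3, Slc6, Slc7, Slc36, Slc38 and Slc43, together with the vesicular carriers Slc17a6, Slc17a7, Slc17a8 and Slc32a1. Slc1a3 was left out by the rule. This gave 62 of the 22001 genes in the count table, and 41 of these passed the filter on low counts and were tested among 13560 genes.

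Embryos were electroporated in utero at E13.5 and the neocortex was collected at E14.5, when mCherry+ cells were isolated. The control group (3 libraries) received a plasmid encoding mCherry alone, and the Insm1 group (3 libraries) a plasmid encoding Insm1 and mCherry. All other steps were shared by the groups, the labels name no strain or plasmid promoter, and both groups hold whatever mixture of progenitors and their newborn daughters carried the fluorescent protein. The labels number the libraries but do not say whether each came from its own litter, so p-values measure the spread between libraries. In bulk RNA of this kind, fewer cells of a type and less RNA per cell cannot be told apart.

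Amino acids cross the plasma membrane through carriers that are driven by ion gradients or that exchange one amino acid for another. Transmitter carriers of the Slc1 and Slc6 families clear glutamate, GABA, glycine and monoamines from the space around cells, and vesicular carriers load transmitter into synaptic vesicles. In the embryonic cortex, vesicular glutamate carriers mark excitatory neurons, whereas several uptake carriers are known from radial glia. Insm1 is a zinc-finger transcription factor found in basal progenitors and newborn neurons.

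Promoter sequence is shown for 3 transporters: Slc17a7, the only member that rose in the test; Slc17a6, its partner in glutamatergic vesicles; and Slc7a11, whose promoter holds a known amino acid response motif and whose libraries separated by group. The windows cover the 250 bases before a RefSeq start site on GRCm38.p6, for Slc17a6 the upstream one of its starts, read 5′ to 3′ on the gene's strand. Capitals mark matches to TGATGNAA, the amino acid response element, on either strand. The windows are chr7:45163671-45163920 (+) for Slc17a7, chr7:51621580-51621829 (+) for Slc17a6 and chr3:50443614-50443863 (-) for Slc7a11.
Slc17a7: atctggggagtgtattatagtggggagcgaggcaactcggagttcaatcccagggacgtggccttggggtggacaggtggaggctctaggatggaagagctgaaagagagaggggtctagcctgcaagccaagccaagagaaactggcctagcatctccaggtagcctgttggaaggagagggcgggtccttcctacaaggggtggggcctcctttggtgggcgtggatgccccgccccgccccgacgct
Slc17a6: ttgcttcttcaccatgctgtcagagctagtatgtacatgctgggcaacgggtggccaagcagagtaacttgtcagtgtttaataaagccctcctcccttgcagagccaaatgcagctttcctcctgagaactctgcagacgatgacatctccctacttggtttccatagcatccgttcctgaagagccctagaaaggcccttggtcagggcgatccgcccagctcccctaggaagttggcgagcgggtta
Slc7a11: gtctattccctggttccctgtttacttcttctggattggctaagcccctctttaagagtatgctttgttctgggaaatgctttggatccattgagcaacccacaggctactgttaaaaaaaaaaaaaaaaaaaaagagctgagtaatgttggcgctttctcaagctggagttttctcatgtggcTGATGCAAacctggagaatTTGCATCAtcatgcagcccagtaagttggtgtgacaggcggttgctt

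In the Slc7a11 window the motif occurred on each strand, as an inverted pair. RefSeq windows were found for 44 of the 62 members (67 windows). TGATGNAA occurred in 3 of these windows (4.48%), belonging to Slc7a11 and Slc7a7, and in 3.45% of all 32851 promoter windows. AGGGGGC, the core of the published Insm1 binding motif, occurred on either strand in 11 member windows (16.4%) from 10 genes, against 9.43% of all windows. CAGATG, an E-box read by proneural factors, occurred in 13 member windows (19.4%) from 12 genes, against 14.4% of all windows. Neither AGGGGGC nor CAGATG was present in the 3 windows printed. Slc17a6 was nevertheless among the 12 genes with CAGATG, which occurred once before its downstream start (window chr7:51624387-51624636, + strand). The motifs share no spelling. Such matches describe the letters of a window and say nothing of binding.

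Library totals ran from 30017645 to 31645135 counts. Insm1 itself rose from 308 ± 76.8 (SD, n = 3) CPM (counts scaled to library size, with TMM factors) in controls to 1726 ± 393 (SD, n = 3), a log2 fold change of 2.49 (SE 0.261, edgeR adjusted p = 0.0122). Because the plasmid carries Insm1, these counts can hold plasmid transcripts. Libraries also differed in blood transcripts, whose summed level ran from 186 to 3133 CPM in controls and from 1713 to 3670 CPM in Insm1 libraries. Summed markers of apical progenitors were 3449, 3305 and 2968 CPM in controls 1 to 3 and 2726, 2501 and 2222 CPM in Insm1 libraries 1 to 3. Those of projection neurons were 5983, 5812 and 5861 CPM against 6827, 7207 and 7421 CPM. Of 9 apical progenitor markers tested, 4 fell (Fabp7, Vim, Nes and Slc1a3), and of 6 neuronal markers 3 rose (Tubb3, Neurod6 and Bcl11b). DESeq2 called 6 of the apical progenitor and 5 of the neuronal markers, and limma-voom 4 and 3. Of all tested genes, edgeR called 3.35%, DESeq2 7.4% and limma-voom 2.99%. Of the 6 fits that left out a library, Fabp7, Slc1a3 and Tubb3 were called in 6, Vim in 5, Nes in 3, Neurod6 in 2 and Bcl11b in 1. Besides Insm1, the basal progenitor markers Eomes, Neurog2 and Btg2 were not called by edgeR (log2 -0.05, -0.12 and -0.06).

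Of the 41 tested transporters, 1 rose (Slc17a7) and 1 fell (Slc6a15) in edgeR's quasi-likelihood test at an adjusted p below 0.05. That is 4.88% of the members, beside 3.35% of all tested genes, or 1.23% higher and 2.12% lower. DESeq2 called 4 members and 7.4% of all genes, and limma-voom called 2 members and 2.99% of all genes. An unadjusted edgeR p below 0.05 was found for 11 members (26.8%), beside 17.2% of all genes. The libraries of both groups did not overlap for 9 members, beside 22.2% of all genes. All Insm1 libraries lay above all controls for 5 of these (10.4% of all genes), and below them for 4 (11.8% of all genes). Fold changes were positive for 17 members and negative for 24, with a median log2 of -0.05, and for all genes 6529 were positive and 7031 negative. The share of members that edgeR called and the share that separated were near the background.

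**Figure D1:**
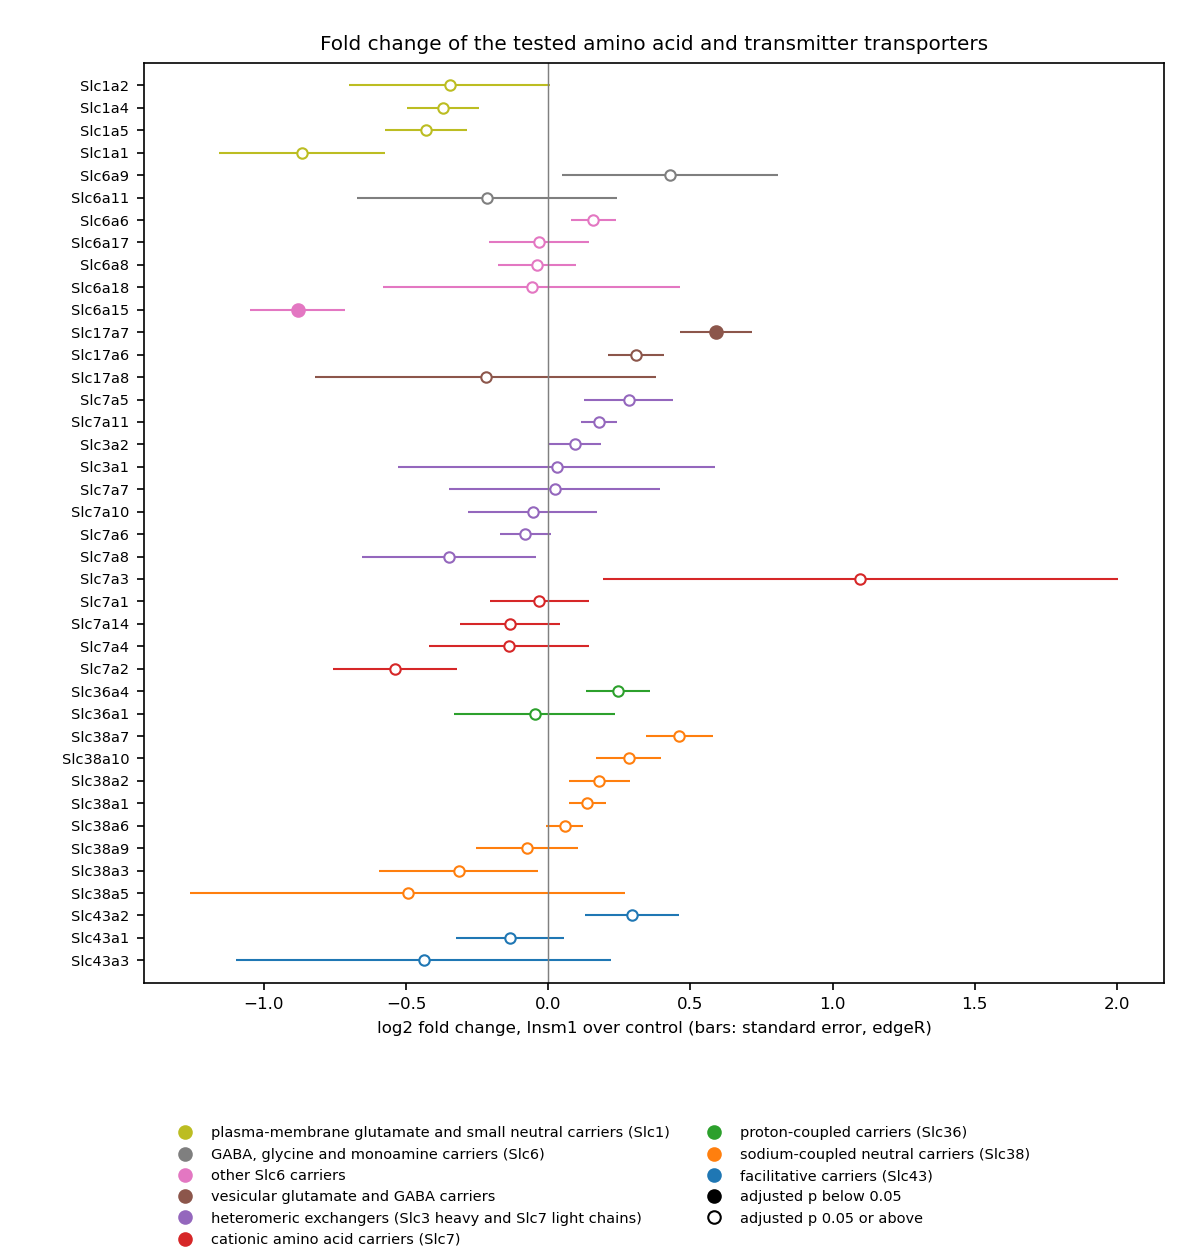
Log2 fold change of the tested transporters, Insm1 over control, on the horizontal axis with edgeR standard errors as bars, grouped and coloured by role. Only Slc17a7 (0.59) and Slc6a15 (-0.88) are drawn filled, and all 4 Slc1 carriers lie left of 0.

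Vesicular carriers were the group with the largest median difference upwards. Slc17a7 (VGLUT1; chr7:45163949-45176142, + strand, GRCm38) loads glutamate into vesicles and is known chiefly from mature cortical terminals. It measured 71.2, 53.4 and 62.8 CPM in controls 1 to 3 and 90.4, 109 and 82.7 CPM in Insm1 libraries 1 to 3. Every Insm1 library was above every control, with Insm1 library 2 the highest and control 2 the lowest. The means were 62.5 ± 8.93 and 94.1 ± 13.6 CPM (SD, n = 3 each), a 1.51-fold rise (log2 0.59, SE 0.128, edgeR adjusted p = 0.0362). The call did not hold without control 2 (adjusted p = 0.0545), control 3 (0.134), Insm1 library 1 (0.0691) or Insm1 library 2 (0.114), nor in limma on log2(TPM + 1) (0.140), and it held without control 1 (0.0400) and without Insm1 library 3 (0.0475). With the replicate number as a block it was lost as well (adjusted p = 0.0942), and the log2 fold change stayed between 0.47 and 0.70 when single libraries were left out.

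Slc17a6 (VGLUT2; chr7:51622006-51671119, + strand), the vesicular glutamate carrier that young neurons express early, was the more abundant of the pair. It measured 125, 165 and 134 CPM in controls 1 to 3 and 181, 178 and 168 CPM in Insm1 libraries 1 to 3. The groups separated, although control 2 lay within 3 CPM of the lowest Insm1 library. The log2 fold change was 0.31 (SE 0.0978) and did not pass the test (edgeR adjusted p = 0.130). DESeq2 called it (adjusted p = 0.0378), and edgeR called it when control 2 was left out (log2 0.44, adjusted p = 0.0102).

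Slc17a8 (VGLUT3), a carrier of scattered neuron types, was at the detection limit, with 8, 11 and 17 counts in controls 1 to 3 and 9, 13 and 9 in Insm1 libraries 1 to 3 (log2 -0.22, edgeR adjusted p = 0.908). Slc32a1, the vesicular carrier for GABA and glycine and a defining marker of inhibitory neurons, had 7, 2 and 5 counts in controls and 0, 0 and 4 in Insm1 libraries, too few to test. A count of 0 here allows up to 3 counts, between 0.0948 and 0.0999 CPM depending on the library, scaled to library totals without TMM factors. Of these 4 carriers, those for glutamate thus supplied nearly all transcripts. The vesicular monoamine carrier Slc18a2, read from another list, averaged 15.2 and 15.5 CPM.

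Per kilobase of annotated exon, Slc17a6 and Slc17a7 together reached 36.4, 40.5 and 36.5 CPM in controls 1 to 3 and 50.2, 53.1 and 46.4 CPM in Insm1 libraries 1 to 3. The groups did not overlap, with means of 37.8 ± 2.34 and 49.9 ± 3.37 (SD, n = 3). Slc17a7 made up 36.2%, 24.4% and 31.97% of the sum in controls and 33.4%, 38.1% and 33.1% in Insm1 libraries, so the balance of the pair overlapped between groups. The rise in Slc17a7 came in libraries whose projection neuron markers were higher and whose apical progenitor markers were lower, as given above. The part of that shift in the difference was not tested. Cajal-Retzius neurons are also glutamatergic. Their marker sum was 135, 34.3 and 130 CPM in controls 1 to 3 and 51.4, 40.1 and 35.3 CPM in Insm1 libraries 1 to 3. The groups overlapped through control 2 alone. All 6 markers were negative (median log2 -1.6). None was called by edgeR or limma-voom, DESeq2 called 2, and 3 (50%) had an unadjusted edgeR p below 0.05. For all genes the shares were 7.4% with DESeq2 and 17.2% with the unadjusted p.

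**Figure D2:**
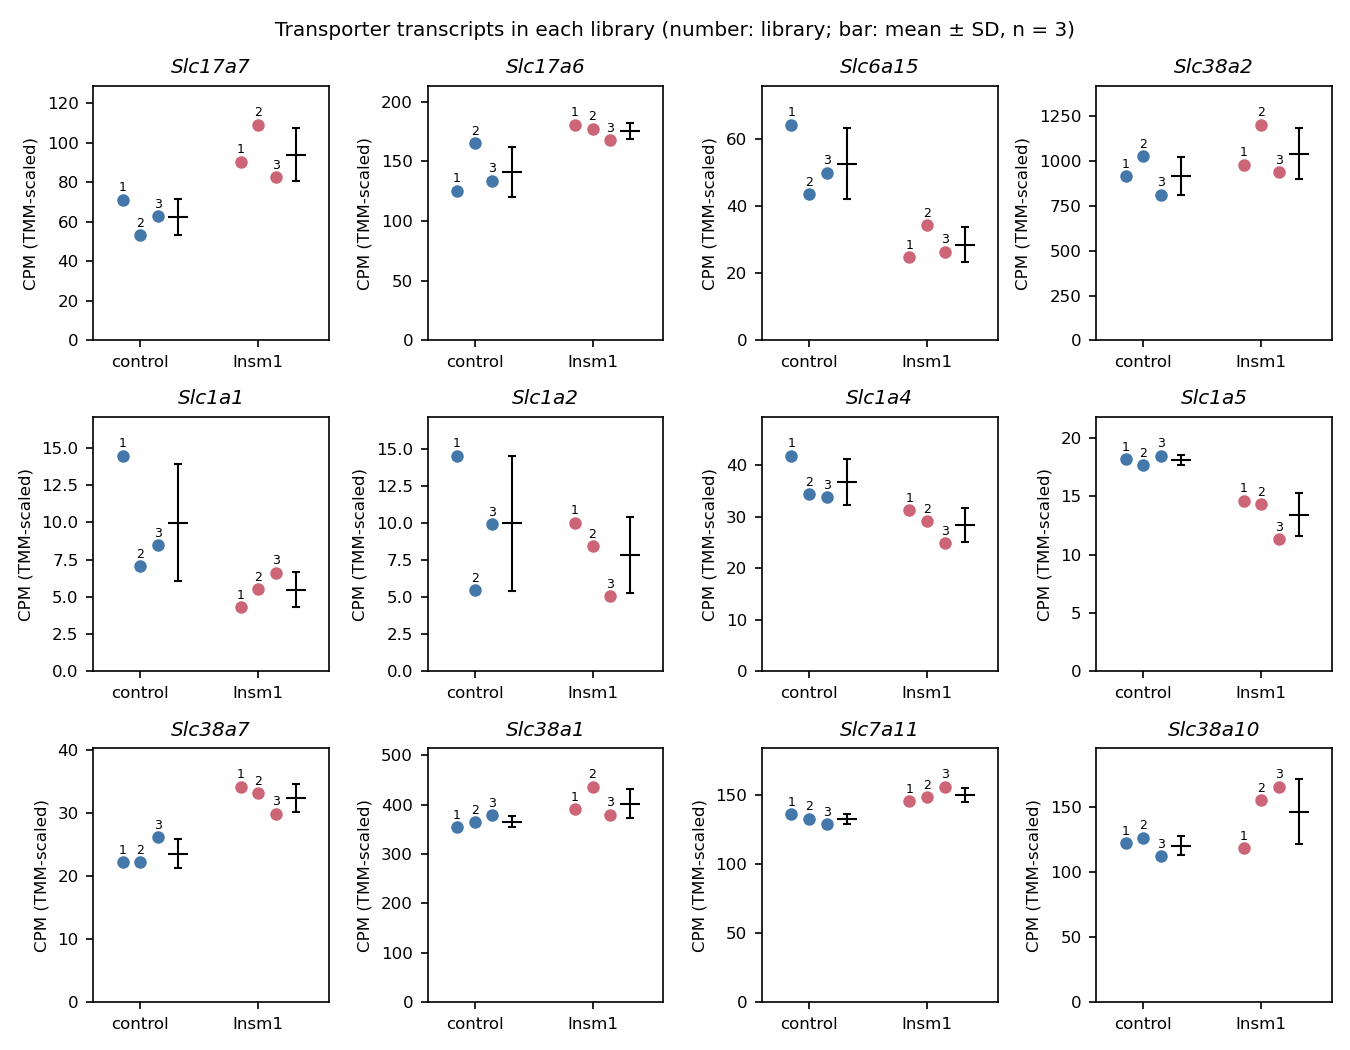
TMM-scaled CPM of 12 transporters in each library (numbered points, control in blue and Insm1 in red), with mean and SD of 3 libraries beside them and axes that start at 0. Slc17a7 and Slc6a15 separate the groups in opposite directions, and Slc1a2 and Slc38a2 overlap.

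Slc6a15 (chr10:103367783-103419377, + strand) was the transporter that fell. It encodes a sodium-coupled carrier for branched-chain amino acids and proline that is found mainly in neurons. It measured 64.1, 43.5 and 49.8 CPM in controls 1 to 3 and 24.7, 34.3 and 26.4 CPM in Insm1 libraries 1 to 3. All controls were above all Insm1 libraries, control 1 being the highest. The means were 52.5 ± 10.5 and 28.5 ± 5.14 CPM (SD, n = 3 each), a log2 fold change of -0.88 (SE 0.166, 1.84-fold lower, edgeR adjusted p = 0.0203). The call was lost without control 1 (adjusted p = 0.0568), control 3 (0.0716), Insm1 library 1 (0.0632) or Insm1 library 3 (0.0867), with the replicate block (0.0681) and in limma on log2(TPM + 1) (0.0830). It held without control 2 (0.00794) and without Insm1 library 2 (0.0308), and the log2 fold change ran from -1.04 to -0.70 across the 6 omissions. Neuronal markers moved the other way in these libraries, and apical progenitor markers the same way. The part of either was not tested.

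The other tested Slc6 carriers of metabolites showed small differences. Slc6a8, the creatine carrier, measured 19.3, 22.7 and 19.4 CPM in controls 1 to 3 and 17.3, 21.1 and 21.3 CPM in Insm1 libraries 1 to 3. The groups overlapped throughout (log2 -0.04, edgeR adjusted p = 0.930), and the sign turned when single libraries were left out. Slc6a6, the taurine carrier and the most abundant Slc6 gene, averaged 115 ± 7.25 and 129 ± 8.75 CPM (SD, n = 3), log2 0.16 (edgeR adjusted p = 0.342). Slc6a17, a vesicular carrier for neutral amino acids, and Slc6a18, a carrier best known from kidney, had log2 values of -0.03 and -0.06.

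Carriers of the Slc1 family, which take up glutamate and aspartate or exchange small neutral amino acids, were lower in the mean for all 4 tested genes. None passed edgeR, DESeq2 or limma-voom, and 3 (75%) had an unadjusted edgeR p below 0.05, beside 17.2% of all genes. The group median was a log2 of -0.40, with a range from -0.87 to -0.35. This direction held for all 4 under each scaling, filter and tool tried. Without control 1, however, 1 of the 4 (Slc1a2) turned positive.

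Slc1a1 (EAAC1; chr19:28835049-28913960, + strand) is the neuronal uptake carrier for glutamate and also brings cysteine into cells. It measured 14.47, 7.04 and 8.45 CPM in controls 1 to 3 and 4.30, 5.51 and 6.63 CPM in Insm1 libraries 1 to 3. The groups did not overlap, but control 1 was far above the other two controls and control 2 was close to Insm1 library 3. The log2 fold change of -0.87 (SE 0.291) did not pass the test (edgeR adjusted p = 0.1505), and it was -0.49 at the smallest when single libraries were left out. Exons of Slc1a1 overlap those of 4430402I18Rik on the other strand over 2631 bases. That gene averaged 1.52 and 1.14 CPM, and the library protocol names no step that marks strand.

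Slc1a4 (ASCT1), which carries serine, alanine and cysteine, measured 41.9, 34.5 and 33.9 CPM in controls 1 to 3 and 31.3, 29.2 and 24.9 CPM in Insm1 libraries 1 to 3. All Insm1 libraries were below all controls (log2 -0.37, SE 0.128, edgeR adjusted p = 0.163). Slc1a5 (ASCT2), a glutamine exchanger of dividing cells, went from 18.1 ± 0.417 to 13.4 ± 1.82 CPM (SD, n = 3), log2 -0.43 (SE 0.146, edgeR adjusted p = 0.154), and its groups did not overlap either. Slc1a2 (GLT-1), the main glutamate carrier of mature astrocytes, ran from 5.48 to 14.57 CPM in controls and from 5.07 to 10.05 CPM in Insm1 libraries, so its groups overlapped (log2 -0.35, edgeR adjusted p = 0.709). Slc1a3 (GLAST), the radial glial member that the rule left out, fell from 134 ± 11.1 to 63.9 ± 9.52 CPM (log2 -1.07, edgeR adjusted p = 0.00386). Summed apical progenitor markers, given above, were lower in every Insm1 library than in every control, and their part in the Slc1 values was not tested. Slc1a6 and Slc1a7, known from Purkinje cells and retina, had 20 counts each over all 6 libraries.

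Most carriers that clear GABA, glycine and monoamines were scarce, as were markers of inhibitory neurons. The summed level of the interneuron markers was 12.9, 10.2 and 17.0 CPM in controls 1 to 3 and 9.63, 8.20 and 7.43 CPM in Insm1 libraries 1 to 3, with 7 markers tested. None of the 7 was called by edgeR or limma-voom, DESeq2 called 1, and 2 (28.6%) had an unadjusted edgeR p below 0.05. For all genes the shares were 7.4% with DESeq2 and 17.2% with the unadjusted p. Gad1 and Gad2, the enzymes that make GABA, averaged 1.04 and 2.56 CPM in controls and 0.582 and 1.43 CPM with Insm1.

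The glial glycine carrier Slc6a9 (GlyT1) averaged 2.59 ± 1.15 and 3.48 ± 1.05 CPM (SD, n = 3; log2 0.43, edgeR adjusted p = 0.650), and its exons share 1429 bases with Ccdc24 on the other strand. The GABA carrier Slc6a11 (GAT-3) averaged 1.45 and 1.25 CPM. The neuronal glycine carrier Slc6a5 had 33 counts in all 6 libraries, the noradrenaline carrier Slc6a2 had 23, and the serotonin carrier Slc6a4 had 1. The dopamine carrier Slc6a3 had 8 counts, all in control 1. The GABA and betaine carriers Slc6a12 and Slc6a13 had no counts. In all, 8 members had 0 counts in every library (Slc36a3, Slc6a7, Slc6a12, Slc6a13, Slc6a14, Slc6a19, Slc7a12 and Slc7a15), and 13 more had counts but at most 33 in total. Of these 13, Slc36a2, Slc38a4, Slc38a8, Slc38a11, Slc7a9 and Slc7a13 had between 1 and 5 counts over all libraries.

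The Slc38 family, sodium-coupled carriers of glutamine and other neutral amino acids, supplied the most transcripts. Slc38a2 (SNAT2; chr15:96687392-96699730, - strand), which is induced by amino acid shortage in many cells, measured 915, 1026 and 812 CPM in controls 1 to 3 and 979, 1202 and 939 CPM in Insm1 libraries 1 to 3. Library 2 was the highest of each group, and the groups overlapped (log2 0.18, SE 0.107, edgeR adjusted p = 0.458). Per kilobase of exon it made up 27.5% of the summed level of all members. Of the 8 tested Slc38 genes none was called by edgeR or limma-voom, DESeq2 called 1, and 2 (25%) had an unadjusted edgeR p below 0.05. For all genes the shares were 7.4% with DESeq2 and 17.2% with the unadjusted p.

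The Slc38 gene that DESeq2 called was Slc38a7 (SNAT7), a carrier that exports glutamine from lysosomes. It measured 22.2, 22.2 and 26.2 CPM in controls 1 to 3 and 34.1, 33.1 and 29.9 CPM in Insm1 libraries 1 to 3. The groups did not overlap, and the difference (log2 0.46, SE 0.117, 1.38-fold) missed the threshold in edgeR (adjusted p = 0.0665) and passed it in DESeq2 (adjusted p = 0.00924). Slc38a1 (SNAT1), a glutamine carrier of neurons, averaged 366 ± 11.8 and 402 ± 29.8 CPM (SD, n = 3), with Insm1 library 3 at 380 CPM next to control 3 at 378 CPM (log2 0.14, edgeR adjusted p = 0.329). Slc38a10 averaged 120 ± 7.19 and 147 ± 24.9 CPM (log2 0.28, edgeR adjusted p = 0.240), with Insm1 library 1 inside the control range. It passed when that library was left out (log2 0.42, adjusted p = 0.0332). Slc38a6, the second most abundant member per kilobase of exon, was close in both groups at 371 ± 17.0 and 386 ± 24.3 CPM (log2 0.06). The lysosomal arginine sensor Slc38a9 averaged 14.0 and 13.3 CPM, and the glutamine carriers Slc38a3 and Slc38a5, known from astrocytes and other tissues, 4.20 and 0.336 CPM in controls.

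Heteromeric exchangers pair a heavy chain of the Slc3 family with a light chain of the Slc7 family. None of the 8 tested was called by edgeR, DESeq2 or limma-voom, and 5 were positive and 3 negative. An unadjusted edgeR p below 0.05 was found for 1 (12.5%), beside 17.2% of all genes. The heavy chain Slc3a2 (CD98) measured 100.3, 95.1 and 79.6 CPM in controls 1 to 3 and 95.8, 101 and 96.96 CPM in Insm1 libraries 1 to 3, with overlapping groups (log2 0.10, edgeR adjusted p = 0.686). Its partner for large neutral amino acids, Slc7a5 (LAT1), averaged 75.8 ± 15.1 and 92.2 ± 14.7 CPM (SD, n = 3; log2 0.28, edgeR adjusted p = 0.412). Slc7a6, which exchanges cationic for neutral amino acids, averaged 71.3 and 67.4 CPM.

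Slc7a11 (xCT; chr3:49892526-50443614, - strand), which takes up cystine in exchange for glutamate, is the gene with the inverted TGATGCAA pair printed above. It measured 137, 133 and 129 CPM in controls 1 to 3 and 146, 149 and 156 CPM in Insm1 libraries 1 to 3. The groups were tight and did not overlap, but the difference was small (log2 0.18, SE 0.0631, 1.13-fold, edgeR adjusted p = 0.174). The other light chains were low. Slc7a7, Slc7a8 and Slc7a10 averaged 2.82, 7.14 and 5.17 CPM in controls, and the heavy chain Slc3a1 of kidney 0.412 CPM. Slc7a10 (Asc-1) carries small neutral amino acids including D-serine in brain. Exons of Slc7a7, Slc7a10 and Slc3a1 overlap those of Oxa1l, Lrp3 and Prepl on the other strand over 232, 377 and 601 bases. Those neighbours averaged 41, 101 and 57.6 CPM in controls, far above the members. Their part in these low values was not tested.

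Cationic carriers, which bring in arginine and lysine, had no call among 5 tested by edgeR, DESeq2 or limma-voom. An unadjusted edgeR p below 0.05 was found for 1 (20%), beside 17.2% of all genes. Slc7a2 was the one, averaging 12.1 ± 2.26 and 8.33 ± 1.98 CPM (SD, n = 3; log2 -0.54, edgeR adjusted p = 0.238). Slc7a1, the general arginine carrier, averaged 19.7 and 19.3 CPM, and Slc7a14 8.03 and 7.31 CPM. Slc7a4 measured 8.39, 4.22 and 7.25 CPM in controls 1 to 3 and 4.75, 7.03 and 6.27 CPM in Insm1 libraries 1 to 3, without separation (log2 -0.14, edgeR adjusted p = 0.872). The widest fold change of all members, that of Slc7a3 (log2 1.10, SE 0.905, edgeR adjusted p = 0.622), rested on 0.788 ± 1.01 against 1.69 ± 0.897 CPM, so its spread exceeded its size in controls.

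Proton-coupled Slc36 carriers and facilitative Slc43 carriers gave no call by edgeR, DESeq2 or limma-voom. None of their 5 tested members had an unadjusted edgeR p below 0.05, beside 17.2% of all genes. Slc36a4, a high-affinity carrier of proline and tryptophan, measured 99.98, 115 and 99.2 CPM in controls 1 to 3 and 103, 137 and 133 CPM in Insm1 libraries 1 to 3 (log2 0.24, edgeR adjusted p = 0.303). Insm1 libraries 2 and 3 were above all controls and Insm1 library 1 was among them. Slc43a2 (LAT4), a carrier of large neutral amino acids, measured 21.5, 15.6 and 22.5 CPM in controls and 22.2, 22.6 and 28.2 CPM in Insm1 libraries (log2 0.29, edgeR adjusted p = 0.422). Slc43a1 (LAT3) averaged 10.5 and 9.51 CPM, Slc43a3 1.08 and 0.798 CPM, and the lysosomal carrier Slc36a1 4.16 and 4.02 CPM.

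Levels of different transporters can be compared only per length, and here the length used decides the order. The deposited TPM values proved to be divided by the genomic span of each gene, introns included: over 9980 well-counted genes the length implied by counts and TPM matched the GENCODE M21 span within 2% for 96.2%, and the exon length for 1.57%. Levels were therefore compared as CPM per kilobase of annotated exon. On that scale the order in controls began with Slc38a2 (104), Slc38a6 (47.7), Slc17a6 (26.2), Slc3a2 (26.0), Slc38a1 (21.2) and Slc7a5 (20.4). The values of Slc17a6 and Slc3a2 differed by less than the spread between libraries, as did those of Slc38a1 and Slc7a5. In Insm1 libraries Slc38a2 (118) and Slc38a6 (49.6) again led, followed by Slc17a6 (32.5). The order below these leaders also changed with the exon length used. Per kilobase of the longest transcript, in the mean of 6 libraries, Slc38a1 (52.8) ranked 3rd, above Slc17a6 (38.3) and Slc3a2 (33.7).

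**Figure D3:**
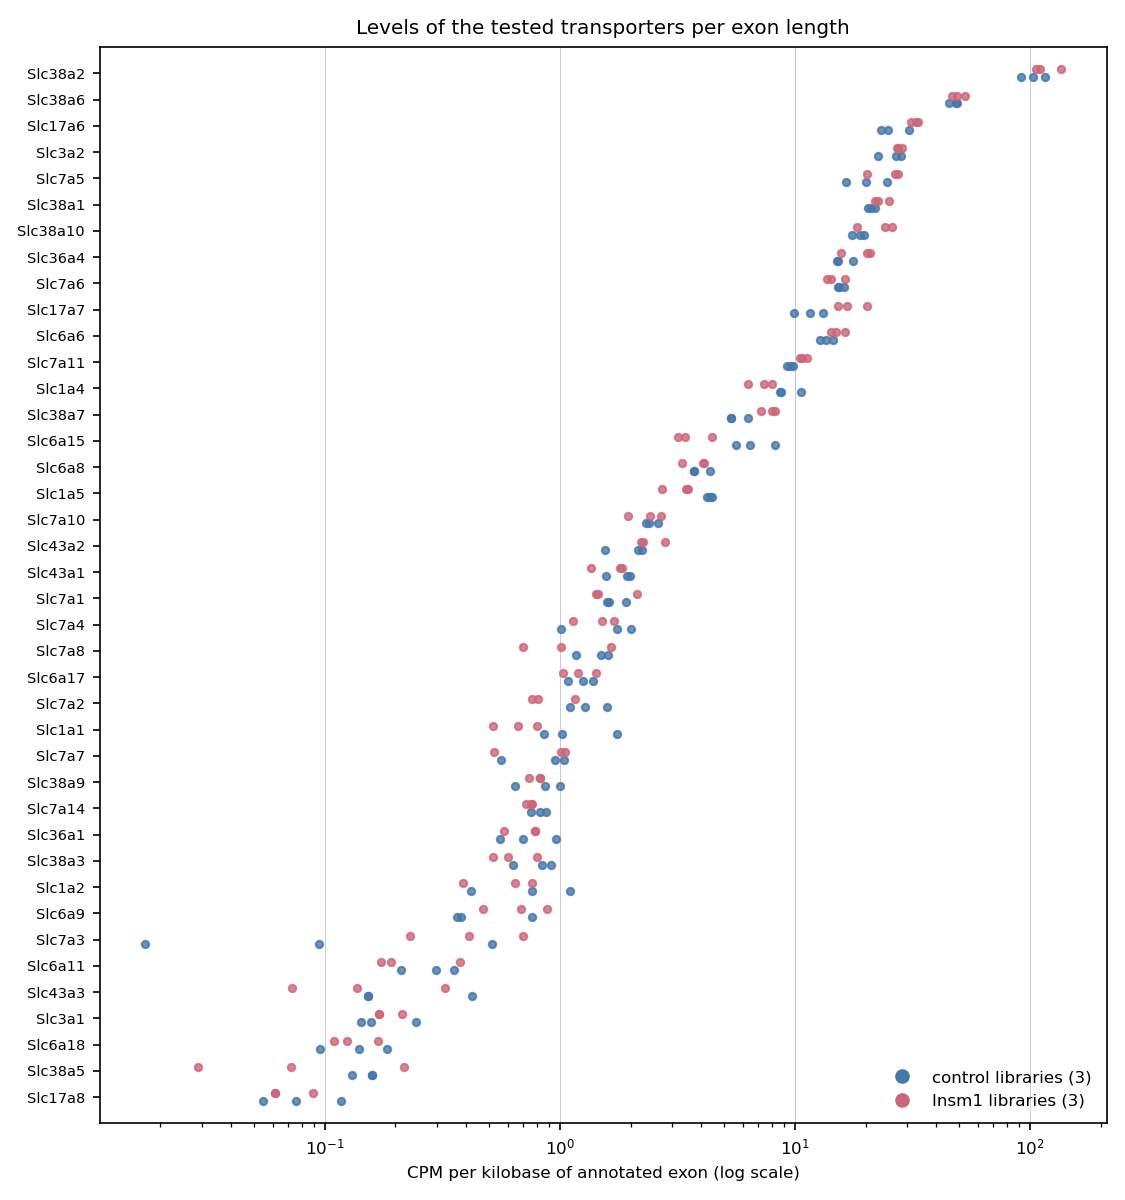
CPM per kilobase of annotated exon on a log axis for the tested transporters, with 3 control libraries in blue and 3 Insm1 libraries in red for each gene. Slc38a2 stands apart at the top with control and Insm1 means of 104 and 118, and Slc17a8 is lowest.

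The difference between length scales was largest for genes with much or little intron. Slc7a11 spans 551089 bases with 13922 bases of exon, and it ranked 12th per exon length but 23rd by deposited TPM, with a mean TPM of 2.24. Slc17a7, a compact gene of 12194 bases, ranked 10th per exon length and 2nd by deposited TPM (55.7), ahead of Slc17a6 (28.0), whereas per exon length Slc17a6 was the higher of the pair in every library. Slc7a4 ranked 22nd and 14th. Slc38a2 was first on both scales. Across the 41 members the scales had a Spearman correlation of 0.945, as a description over genes that share these libraries. Fold changes fitted to counts are not touched by the length of a gene. Those on log2 of TPM can depend on it, for one through the pseudocount that is added after the division. The TPM fits also used no TMM factors. Their median log2 over all genes was -0.0515 on log2(TPM + 1), against -0.00865 in the main fit.

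**Figure D4:**
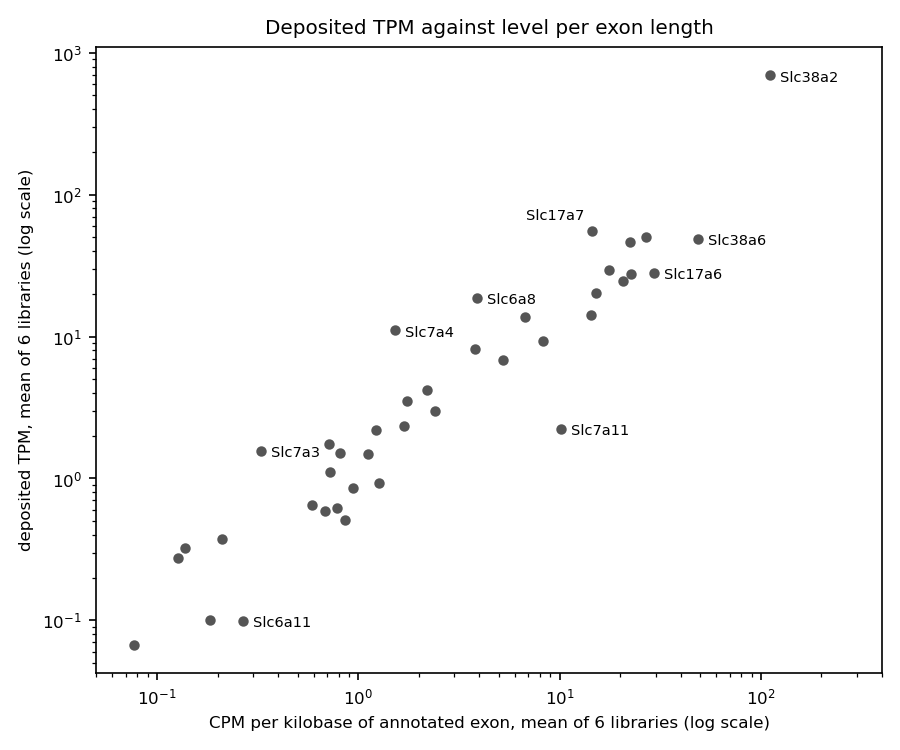
Deposited TPM against CPM per kilobase of annotated exon, means of 6 libraries on log axes, with a point for each transporter drawn. Slc7a11 lies far below the other genes of its level (TPM 2.24) and Slc7a4 above them (TPM 11.1).

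Genes that work with these carriers were read from further lists. As a background, edgeR called 3.35% of all genes, DESeq2 7.4% and limma-voom 2.99%, and 17.2% had an unadjusted edgeR p below 0.05. Of 16 targets and members of the ATF4 amino acid response, which raises carriers and synthesis enzymes when amino acids are short, 2 fell and none rose in edgeR, with a median log2 of 0.03. DESeq2 called 3, limma-voom called 2, and 4 had an unadjusted edgeR p below 0.05. The 2 were enzymes of serine synthesis: Psat1, from 155.5 ± 14.4 to 78.3 ± 14.0 CPM (SD, n = 3; log2 -0.99, edgeR adjusted p = 0.00559), and Phgdh, from 125 ± 13.9 to 78.9 ± 12.3 CPM (log2 -0.66, edgeR adjusted p = 0.0185). The call of Phgdh was lost without control 1 (adjusted p = 0.0661) and without Insm1 library 2 (0.0591). Trib3, a pseudokinase induced by ATF4, had the widest difference of the list, from 0.508 ± 0.372 to 3.03 ± 2.05 CPM (SD, n = 3; log2 2.57, SE 0.731), with Insm1 library 1 at 0.937 CPM next to control 1 at 0.874 CPM. It did not pass in edgeR (adjusted p = 0.0981) and passed in DESeq2 (adjusted p = 0.00693). Ddit4, a stress-induced inhibitor of mTORC1, averaged 69.0 ± 9.66 and 86.1 ± 5.71 CPM without overlap (log2 0.32, edgeR adjusted p = 0.151). Atf3 and Cebpb were lower in the mean, with overlapping groups (log2 -1.15 and -0.81, edgeR adjusted p = 0.497 and 0.389). Of the 16 genes, 8 were positive and 8 negative. The factor Atf4 itself averaged 156 ± 41.1 and 172 ± 19.7 CPM (adjusted p = 0.765), and Asns, which makes asparagine, 40.6 and 42.7 CPM. None of the 22 tested genes that sense amino acids upstream of mTORC1 was called by edgeR or limma-voom, DESeq2 called 1, and 2 had an unadjusted edgeR p below 0.05. DESeq2 called Rragd, from 50.3 ± 6.45 to 37.0 ± 0.881 CPM (SD, n = 3; log2 -0.44) without overlap. Its adjusted p was 0.0610 in edgeR and 0.00717 in DESeq2. The GTPase Rheb, with the most CPM of the list in controls, averaged 114 ± 2.10 and 109 ± 5.30 CPM, and Rragc 101 and 111 CPM.

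Of 16 tested enzymes that make or break down glutamate, GABA and glycine, 1 fell in edgeR, 13 were negative, and the median log2 was -0.18. DESeq2 called 3, limma-voom called none, and 5 (31.2%) had an unadjusted edgeR p below 0.05, beside 7.4%, 2.99% and 17.2% of all genes. The one was Shmt1, which converts serine to glycine, from 33.0 ± 4.77 to 22.3 ± 1.55 CPM (SD, n = 3; log2 -0.57, edgeR adjusted p = 0.0484). That call held in 1 of the 6 fits that left out a library (without control 1, adjusted p = 0.0400) and was lost without control 2 (0.0926), control 3 (0.188), Insm1 library 1 (0.0816), Insm1 library 2 (0.112) or Insm1 library 3 (0.159). Among 5 chloride carriers that set the response to GABA, edgeR and limma-voom called none, DESeq2 called 1, and 1 had an unadjusted edgeR p below 0.05. Slc12a4 was the one, from 6.49 ± 1.53 to 3.14 ± 0.738 CPM (SD, n = 3; log2 -1.05) without overlap. Its adjusted p was 0.0807 in edgeR and 0.0185 in DESeq2. The potassium-chloride carrier Slc12a7, with the most CPM of the list, averaged 69.6 and 74.4 CPM. Slc12a2, which brings chloride into immature neurons, averaged 61.3 and 58.0 CPM, and the chloride exporter Slc12a5 0.932 and 1.30 CPM. Of 12 further transporters of amino acids and transmitters tested, 1 fell (Slc1a3) and 1 rose, Slc29a4, a monoamine carrier, from 104 to 146 CPM on average (log2 0.49, edgeR adjusted p = 0.00655).

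Summed over all 62 members, transporter transcripts came to 2907, 3020 and 2753 CPM in controls 1 to 3 and 3036, 3478 and 3025 CPM in Insm1 libraries 1 to 3. The groups just separated, with means of 2893 ± 134 and 3180 ± 259 CPM (SD, n = 3). Much of this sum is Slc38a2, which did not pass the test. Of the 41 tested members, controls 1 to 3 were the lowest of their group for 12, 17 and 12 and the highest for 16, 14 and 11. Insm1 libraries 1 to 3 were the lowest of their group for 18, 6 and 17 and the highest for 15, 20 and 6. Markers of microglia were uneven, at 1.04, 56.8 and 6.85 CPM in controls 1 to 3 and 8.63, 28.9 and 12.2 CPM in Insm1 libraries 1 to 3, highest in library 2 of each group. Their part in the values of those libraries was not tested. Other markers were low: those of choroid plexus summed to at most 0.907 CPM, of meninges to 3.89 CPM and of mural cells to 3.49 CPM in any library. Astrocyte markers summed to at most 2.89 CPM, those of the oligodendrocyte lineage to 13.6 CPM and those of endothelium to 27.4 CPM. In each of the last 2 lists only 1 marker had enough counts to be tested (Cnp and Mfsd2a).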

How the data were processed

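RNA was measured in 6 libraries of sorted mCherry+ cells. Per the labels' protocols, poly-dT primed cDNA was extended by template switching and amplified (12 cycles), then sheared, ligated to adapters and amplified again (15 cycles) for single reads of 75 bases. No molecular identifiers were used, and the floor of 3 counts covers counting error only. The SDs and standard errors hold the spread between libraries as well. The submitters' processing notes name GRCm38, TopHat2 2.0.13, Bowtie and bcl2fastq. The counter, strand setting and annotation were not given in the sources used here. Counts as deposited are whole numbers per Ensembl gene. The deposited TPM rest on these counts and on a length for each gene, found here to be the genomic span. All 62 members matched GENCODE M21, and exons of 6 overlap another gene on the other strand.

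Genes kept by filterByExpr were scaled by TMM and tested with edgeR 4.0.16 (robust quasi-likelihood, group only, R 4.3.3), with Benjamini-Hochberg adjustment over all tested genes and a threshold of 0.05. The procedure was tested on simulated data. Alternatives were DESeq2 1.42.0, limma 3.58.1 (voom, and log2 of TPM with pseudocounts of 1 and 0.1), other scalings and filters, a replicate block and leaving out each library. The members and lists were chosen with earlier results of these data known. The values of 1 member that counts toward the totals are not reported here, and it is not drawn. Values in each library are given for called members, for members whose groups do not overlap with a log2 fold change of at least 0.5 in size, for the member of highest TPM in each role group and for the vesicular carriers, and the other members given in full were chosen after their values were seen. From the further lists, called genes were named, or the most abundant where none was called, and other genes of those lists were chosen after their values were seen.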

Additional observations from a re-analysis of the deposited data

How the results depend on the processing

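Insm1 kept its direction and its call under every alternative, and the members' median log2 fold change moved by less than the spread between libraries. Genes called numbered 1004 with DESeq2, 100 with limma on log2(TPM + 1), 96 on log2(TPM + 0.1) and 116 to 645 when single libraries were left out, against 454. Transporters called higher were 3 with DESeq2, 0 on either TPM scale and 0 to 1 when single libraries were left out. Those called lower were 0 on either TPM scale and 0 to 2 when single libraries were left out. With the replicate block 0 transporters were called higher and 0 lower, and 331 genes in all. Deviations of control and Insm1 libraries with the same number had correlations across genes of 0.0785, 0.0386 and -0.0482. For libraries with different numbers the correlations ran from -0.0937 to 0.0587. Whether libraries with the same number shared a litter was not tested, as the labels do not name litters. When single libraries were left out, the log2 fold change ran from -0.44 to 0.12 for Slc17a8, from -0.093 to 0.051 for Slc6a8 and from -0.38 to 0.078 for Slc7a4, and so changed sign. The causes were not tested. With 3 libraries a group and counts of at most 33, the members that were not tested allow no statement on change.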
